A study of Mus musculus with 9 samples.

Results

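Cells marked by Gsc and Creb5 make up a small population of the limb bud mesenchyme, here called Gsc Creb5 mesenchyme. A cell was taken into it when it carried at least 3 UMIs of Gsc, at least 1 UMI of Creb5 and at most 2 UMIs of Pax1, among mesenchymal cells with at least 3 UMIs of Prrx1 and no UMI of Lbx1, Epcam, Cdh5 or Tyrobp, which mark muscle precursors, ectoderm, endothelium and myeloid cells. This gate held 2636 cells, 7.60% of the 34671 mesenchymal cells and 5.03% of the 52432 cells that passed the filters, out of 133086 barcodes. The cells were thus chosen by the measured UMIs of these genes, so every gene in gated cells beside other mesenchyme, the gate genes included, is given as a description without a test. Genotypes were compared over libraries.

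The cells came from forelimb buds of mouse embryos at embryonic day E10.75 with 37 to 39 somites, kept on a Swiss Albino background, and each of the 9 libraries came from an independent pair of forelimb buds. The 3 genotypes were wild type (Wt) and animals homozygous for either of 2 Grem1 alleles, E1C8Δ/Δ and E1C5Δ/Δ, with 3 libraries each. Grem1 encodes gremlin 1, a secreted BMP antagonist. Both alleles lack the EC1 enhancer cluster of Grem1, together with the conserved open chromatin element CRM8 in E1C8Δ/Δ and the enhancer CRM5 in E1C5Δ/Δ, so the comparisons ask how this mesenchyme differs when Grem1 regulation is impaired.

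Gsc encodes goosecoid, a homeodomain repressor first known from the embryonic organiser and later from the face and the proximal limb bud. Creb5 encodes a leucine zipper transcription factor of the CREB/ATF family that is known from joint and articular cartilage. In the early limb bud, Meis and Irx transcription factors act in the proximal territory, while 5′ Hoxa and Hoxd genes, FGF signalling from the apical ridge and gremlin 1 act distally. TGFβ2, the product of Tgfb2, is a secreted ligand expressed at sites where cartilage and joints form.

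Because Gsc and Creb5 define the population, the 250 bases before their annotated starts are shown, from RefSeq on build GRCm38.p6. The Gsc stretch is chr12:104473237-104473486 on the minus strand, and the Creb5 stretch, at the first of its annotated starts, is chr6:53287053-53287302 on the plus strand. Capitals mark matches on either strand to TGACGT, the core of the cAMP response element that CREB/ATF proteins bind.
Gsc: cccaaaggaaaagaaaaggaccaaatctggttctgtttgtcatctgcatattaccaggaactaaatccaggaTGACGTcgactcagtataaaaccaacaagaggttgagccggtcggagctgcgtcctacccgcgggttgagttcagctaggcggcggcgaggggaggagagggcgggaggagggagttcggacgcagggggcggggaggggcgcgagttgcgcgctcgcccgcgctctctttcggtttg
Creb5: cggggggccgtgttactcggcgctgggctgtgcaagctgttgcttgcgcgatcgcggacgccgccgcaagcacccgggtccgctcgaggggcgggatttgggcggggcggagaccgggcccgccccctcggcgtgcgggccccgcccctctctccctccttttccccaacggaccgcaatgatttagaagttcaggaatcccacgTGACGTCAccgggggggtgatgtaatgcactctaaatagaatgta
The Creb5 stretch holds the full palindrome TGACGTCA beginning 45 bases before the start, where its core is matched once on each strand. The Gsc stretch holds the core beginning 178 bases before the start, without the full palindrome. Of 32851 mouse promoter stretches of this length, 1.55% held TGACGTCA and 6.47% held TGACGT. Motifs of MEIS/TGIF, EBF and K50 homeodomain proteins were looked at too, and none matched the Gsc or Creb5 stretches. Of the 15 genes highest in gated cells, named below, 11 had such a stretch, and 1 of these, Ebf3, held TGACGT. No match to either was found before the other annotated Creb5 start, at chr6:53573124-53573373, or in the same stretch of Tgfb2 or Irx3. These matches describe letters and do not show binding.

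The gated cells numbered 291, 482 and 46 in the Wt libraries, 51, 461 and 625 in the E1C8Δ/Δ libraries, and 191, 86 and 403 in the E1C5Δ/Δ libraries. The libraries were uneven, with 604 to 9917 cells past the filters. The libraries of Wt replicate 3, E1C8Δ/Δ replicate 1 and E1C5Δ/Δ replicate 2 supplied 46, 51 and 86 gated cells. The summed gated cells held 2315630 to 28089655 UMIs per library, and the median gated cell held 24056 to 58761.5 UMIs. Of the gated cells 659 (25%) were marked as resembling artificial doublets, from 1.96% in E1C8Δ/Δ replicate 1 to 37.6% in E1C8Δ/Δ replicate 3, against 14.8% of all cells. The share of all cells marked in a library was fixed in advance by its barcode count, 2571 and 28480 in these 2 libraries. The 14.8% and part of the spread between libraries thus follow from barcode counts and do not measure doublets. Only 3 barcodes of gated cells occurred in more than 1 library. Sex, read from Xist and genes of the Y chromosome, was male in the 3 Wt libraries and female in 2 of 3 libraries of each mutant, so that sex and genotype are partly confounded against Wt and balanced between the mutants. Grem1 in the summed mesenchymal cells stood at 41.2, 29.6 and 26.8 normalized CPM (a gene's UMIs over the TMM-scaled library total) in Wt, 9.44, 11.7 and 14.2 in E1C8Δ/Δ and 19.8, 17.8 and 25.7 in E1C5Δ/Δ, and no mutant library reached the Wt range.

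Tgfb2 and Irx3, which the gate does not use, are given as a description. From the same libraries, the paper had placed Gsc and Tgfb2 in a proximal chondrogenic cluster. It also listed Creb5 and Irx3 among proximal chondrogenic genes, so their levels here are no independent check. Tgfb2 stood at 117, 112 and 149 CPM in gated Wt cells, at 95.01, 114 and 125 CPM in E1C8Δ/Δ and at 92.3, 96.0 and 78.9 CPM in E1C5Δ/Δ. The other mesenchymal cells of the same libraries held 38.1 to 60.3 CPM of Tgfb2, so the 2 ranges did not overlap. Irx3, a proximal and anterior homeobox gene, stood at 117, 113 and 125 CPM in gated Wt cells, at 162, 112 and 110 CPM in E1C8Δ/Δ and at 121, 121 and 147 CPM in E1C5Δ/Δ. Other mesenchyme held 35.8 to 69.1 CPM of Irx3, again below every gated value. Cells with at least 3 Pax1 UMIs, a neighbouring group, held more Irx3 than gated cells in 8 of 9 libraries (181 ± 48.1 CPM), and their Tgfb2 (92.1 ± 27.2 CPM) was lower in 8 of 9. The median log2 ratio over the 9 libraries was 1.25 for Tgfb2 and 1.24 for Irx3, each higher in 9 of 9 libraries. It was 1.31 and 1.13 beside other mesenchymal cells of nearest depth, and 1.34 and 1.36 after thinning each cell to 10000 UMIs.

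At 10000 UMIs per cell, Tgfb2 was detected in 57.1% ± 6.71 (SD, n = 9 libraries) of gated cells and in 29.0% of other mesenchymal cells, and Irx3 in 62.9% and 25.6%. Erythroid cells, which should lack these genes, showed Tgfb2 in 5.58% and Irx3 in 3.79% of cells at the same depth, over the 7 libraries with at least 20 such cells. For the gate genes the erythroid share was 3.60% for Gsc and 1.05% for Creb5, against 16.6% and 3.12% of other mesenchymal cells. The Gsc share of other mesenchyme (10.97% to 23.8% over libraries) was above every erythroid value (0% to 7.16%), while for Creb5 the ranges overlapped (1.34% to 5.61% and 0% to 2.19%). Before thinning, Tgfb2 was seen in 85.4% and Irx3 in 86.7% of gated cells and in 11.6% and 10.754% of erythroid cells, at a median of 34546 UMIs per gated cell and 34262 per erythroid cell.

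The edges of the gate were gradual. The 359 gated cells with exactly 3 Gsc UMIs held 74.9 CPM of Tgfb2 and 96.8 CPM of Irx3, and the 376 cells with 2 Gsc UMIs that met the rest of the rule held 81.1 and 107 CPM. The 1047 gated cells with a single Creb5 UMI held 94.1 CPM of Tgfb2, and the 2787 cells excluded for lacking Creb5 held 82.8 CPM. Cells with exactly 2 Pax1 UMIs, inside, and with exactly 3, outside, numbered 67 and 40 and held 156 and 191 CPM of Irx3. The median gated cell carried 7 UMIs of Gsc, 2 of Creb5, 16 of Prrx1 and none of Pax1.

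Beyond the gate genes, the 15 genes with the largest median ratio to other mesenchyme were Ebf2, Ntng1, Ackr3, Rgcc, Foxc1, Sned1, Meis2, Rspo2, Cxcl12, Meis1, Spint2, Ebf3, Runx1t1, Foxp2 and Pkdcc, each higher in 9 of 9 libraries. Of the 6028 genes with a mean of at least 20 CPM in either group, 18.4% were higher and 22% lower in all 9 libraries, which makes a shift of this kind common, whereas only 41 genes had a median log2 ratio above 1. Ebf2, whose product acts in connective tissue and fat precursors, led with 60.4 ± 12.9 CPM (SD, n = 9) in gated cells and 10.3 ± 3.07 in other mesenchyme. It was detected in 40.5% of gated and 8.50% of other mesenchymal cells at 10000 UMIs. Ebf3 stood at 48.9 ± 8.39 CPM and 16.7 ± 2.89 CPM.

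**Figure D1:**
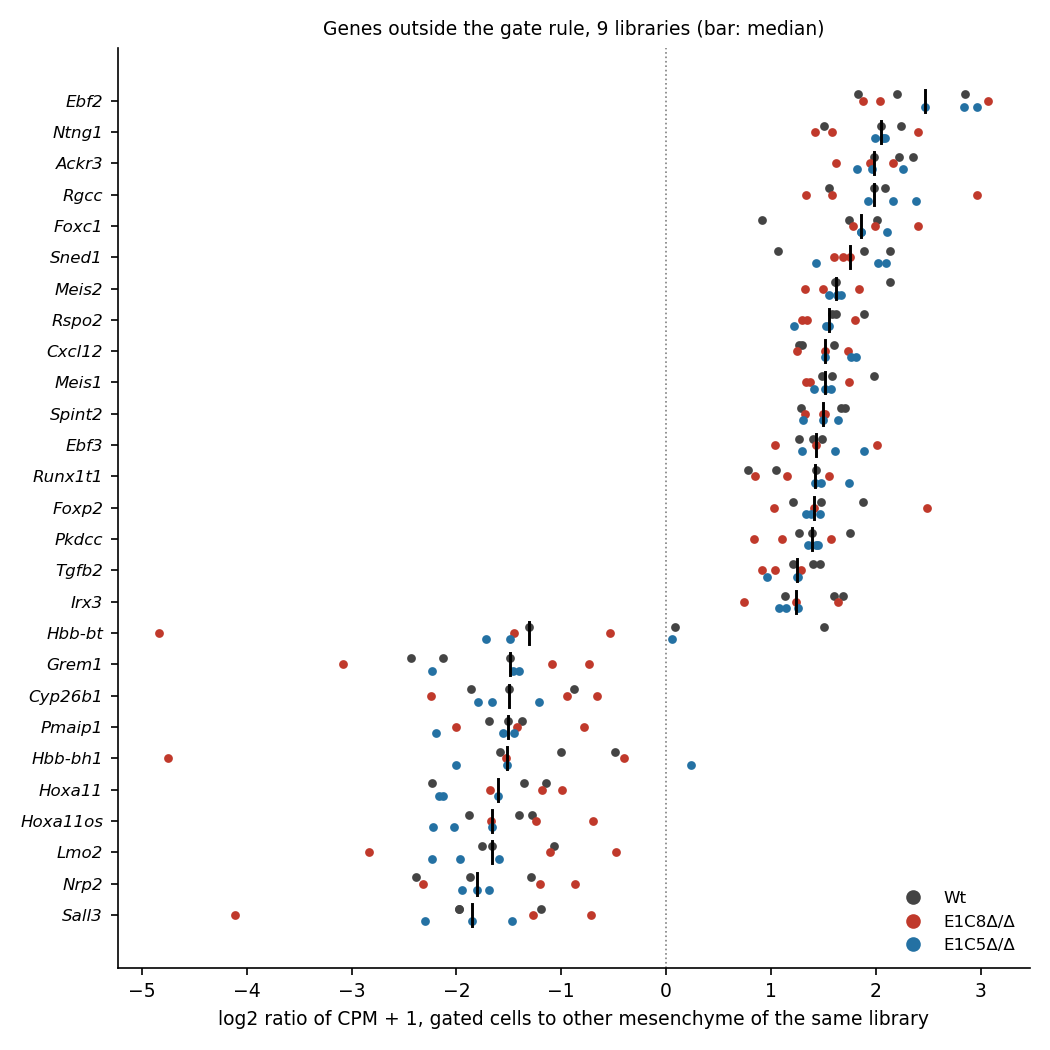
The log2 ratio of CPM plus 1 in gated cells to that in other mesenchyme of the same library (horizontal axis) is plotted for the 15 highest and 10 lowest genes and for Tgfb2 and Irx3, with a point for each library in the colour of its genotype and a bar at the median. Every point of the upper 17 genes lies to the right of 0, from a median of 2.47 for Ebf2 down to 1.24 for Irx3, and the globin genes Hbb-bt and Hbb-bh1 scatter across 0.

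Among proximal factors, 9 of the 13 measured genes were higher in 9 of 9 libraries and 1 was lower. Meis2, a TALE homeobox gene of the proximal limb, stood at 649 ± 83.9 CPM in gated cells and 206 ± 29.4 CPM in other mesenchyme (SD, n = 9). Its lowest gated library (548 CPM) was above the highest value of other mesenchyme (242 CPM). Meis1 stood at 166 ± 32.9 and 55.5 ± 8.40 CPM. Irx5, the neighbour and close relative of Irx3, reached 71.7 ± 12.0 CPM against 28.4 ± 5.04 CPM, but stood higher still in the Pax1 cells, at 109 ± 19.8 CPM. Pkdcc, a secreted kinase needed for limb bone growth, stood at 530 ± 101 and 211 ± 53.2 CPM. Hoxa9 was the member lower in every library, with a median log2 ratio of -0.18, and Shox2, a regulator of the upper limb bones, was lower in 8 of 9 libraries.

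Of the Hox genes measured at 20 CPM or more, 2 of 5 Hoxa genes were higher and 3 lower in 9 of 9 libraries, both Hoxb and both Hoxc genes were higher, and of 7 Hoxd genes none was higher and 4 were lower. Hoxb3, Hoxb4, Hoxc4 and Hoxc6, from the 3′ parts of their clusters, were higher in 9 of 9 libraries, with median log2 ratios of 1.24, 0.97, 0.66 and 0.99. Hoxa5 and Hoxa7 were also higher in all 9, at 0.25 and 0.36. In contrast, Hoxa10, Hoxa11, Hoxd10, Hoxd11, Hoxd12 and Hoxd13 were lower in 9 of 9 libraries, with ratios of -0.73, -1.60, -0.62, -0.95, -0.89 and -1.12. The other Hoxd genes, Hoxd4, Hoxd8 and Hoxd9, were higher in 8, 1 and 4 of 9 libraries, at 0.27, -0.37 and -0.00056. Hoxa11, which patterns the zeugopod, stood at 23.4 ± 7.03 CPM in gated cells and 71.3 ± 10.5 CPM elsewhere. Its antisense partner Hoxa11os, at 25.4 ± 9.47 and 73.2 ± 11.7 CPM, overlaps it.

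Genes of the distal limb bud were low. Of 8 measured distal autopod genes, 7 were lower in all 9 libraries and none was higher, with a median log2 ratio of -1.05. They included Msx1, a BMP-responsive homeobox gene, at 74.7 ± 24.8 against 158 ± 36.5 CPM, and Lmo2 at 7.96 ± 3.70 against 25.4 ± 6.10 CPM. Of 10 measured FGF pathway genes, 8 were lower, among them the targets Etv4 (12.4 ± 3.42 against 26.4 ± 3.68 CPM), Etv5, Dusp6 and Spry2. The receptors Fgfr1 and Fgfr2 were the 2 that were higher, Fgfr2 at 46.7 ± 9.78 against 19.01 ± 3.86 CPM. Grem1 itself was among the 10 lowest genes, at 6.04 ± 3.09 against 22.1 ± 10.4 CPM, together with the retinoic acid degrading enzyme Cyp26b1, the guidance receptor Nrp2, Sall3 and Pmaip1.

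Cartilage genes were raised in part. Of 7 measured chondrogenic genes, 5 were higher in 9 of 9 libraries. Col2a1 and Col9a1, which encode cartilage collagens, stood at 102 ± 28.7 and 110 ± 26.5 CPM, against 45.0 ± 18.2 and 46.7 ± 8.59 CPM in other mesenchyme. Sox9, the master regulator of the cartilage lineage, was raised less, at 316 ± 74.5 against 208 ± 49.2 CPM. Scx, a tendon progenitor factor, stood at 104 ± 24.1 against 51.2 ± 17.2 CPM, and 8 of 11 tendon and connective tissue genes were higher in all libraries. Of the same 11, Meox2 and Tcf4 were lower in all libraries. Of 8 measured stress genes, which include immediate early genes that cell dissociation can raise, 6 were higher and 1 was lower in every library. Jun, for instance, stood at 265 ± 60.4 against 123 ± 28.2 CPM. The part of these genes in the other differences was not tested.

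Among signalling genes, Wnt modulators were split. Rspo2, which amplifies Wnt signals, and Sfrp1, which binds Wnt ligands, were higher in 9 of 9 libraries, at 27.4 ± 5.26 against 8.78 ± 1.69 CPM and 139 ± 16.0 against 63.1 ± 9.05 CPM. The Wnt targets Axin2 and Nkd1, the ligand Wnt5a and the antagonist Frzb were lower in all 9, with median log2 ratios of -0.61, -0.62, -0.70 and -0.85. In the hedgehog list Cdon and Boc, coreceptors, were higher in all 9 at 1.12 and 0.79, and the target Ptch1 was lower in all 9 at -0.57. Of 10 measured TGFβ pathway genes, 5 were higher in all libraries, but Tgfb2 alone had a ratio above 0.3. The chemokine Cxcl12 (64.0 ± 7.51 against 21.7 ± 3.67 CPM) and its scavenging receptor Ackr3 (20.0 ± 8.16 against 4.18 ± 2.24 CPM) were both higher in 9 of 9 libraries. Ackr3 was detected in 17.0% of gated cells at 10000 UMIs, 3.97% of other mesenchyme and 14.2% of Pax1 cells. Its gated share ran from 6.98% to 24.4% over the libraries, above the 2.36% to 6.86% of other mesenchyme. Erythroid cells held it in 13.8% ± 3.11 (SD, n = 7), at 10.13% to 19.02%, also above other mesenchyme in every library.

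Detection of single genes varied among the gated cells. Sox9 was detected in 93.6% and Col2a1 in 83.2% of them with all UMIs, against 80.8% and 54.2% at 10000 UMIs. A gated cell without a gene's UMIs at that depth thus need not lack its RNA. At 10000 UMIs, 54.3% to 57.8% of gated cells in the Wt libraries carried UMIs of both Sox9 and Col2a1, and 13.5% to 17.4% carried neither. Both genes were seen together in 46.0% to 57.6% of gated cells in E1C8Δ/Δ and 34.7% to 49.1% in E1C5Δ/Δ. Gated cells with Col2a1 more often carried Scx than gated cells without it, in 9 of 9 libraries, with medians of 71.1% and 56.0%. The same held for Irx3 (70.1% and 52.9%) and Tgfb2 (60% and 50%). Ebf2 was found more often with than without Col2a1 in 6 of 9 libraries, although its medians were 40.0% and 41.1%.

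The gated cells differed from the neighbouring populations in particular genes, given as a description. How many of all genes were higher or lower in 9 of 9 libraries was not counted for these populations. How common such a shift is there is therefore unknown. Beside 1688 cells with at least 3 Pax1 UMIs, an anterior proximal group that the gate excludes, the gated cells were higher in 9 of 9 libraries for Foxc1 (20.5 ± 7.69 against 2.50 ± 1.80 CPM), Ebf2 (against 16.5 ± 8.73 CPM), Osr1 (41.5 ± 22.7 against 12.0 ± 6.603 CPM) and Scx (against 37.9 ± 16.9 CPM). At 10000 UMIs, Irx3 and Irx5 were detected in 72.2% and 63.5% of Pax1 cells and in 62.9% and 46.7% of gated cells, and Tgfb2 in 48.2% and 57.1%. The gated cells were lower in 9 of 9 for Emx2, a scapula regulator (11.04 ± 4.64 against 54.2 ± 19.3 CPM), the glutamate receptor gene Gria2 (19.7 ± 10.3 against 100.2 ± 26.4 CPM), and Msx1. Meis2 and Pkdcc were less apart, at 476 ± 71.2 and 521 ± 128 CPM in the Pax1 cells, and higher in the gated cells of 8 and 6 libraries. Beside 5604 cells outside the gate with at least 3 UMIs each of Sox9 and Col2a1, the gated cells held more Ebf2, Ntng1, Rgcc and Meis2, and less Osr2 (10.96 ± 7.61 against 35.2 ± 30.7 CPM) and Tbx15, each in 9 of 9 libraries. Beside 402 cells with at least 3 Sostdc1 and 1 Hgf UMIs they held more Hoxc6 (49.3 ± 5.08 against 11.8 ± 5.93 CPM) and Rspo2, and less Meox2 (27.4 ± 9.68 against 105 ± 41.4 CPM), again in all 9. Only 2 of these 402 cells came from E1C8Δ/Δ replicate 1 and 6 from E1C5Δ/Δ replicate 2, so the values of those libraries are imprecise.

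The share of mesenchymal cells in the gate stood above Wt in E1C8Δ/Δ and below Wt in E1C5Δ/Δ once Gsc, Creb5 and Pax1 were counted at equal depth. With all UMIs, the share was 7.09%, 8.49% and 7.78% in Wt, 12.4%, 7.03% and 10.3% in E1C8Δ/Δ, and 6.77%, 5.29% and 5.91% in E1C5Δ/Δ. Every E1C5Δ/Δ library was below every Wt library, while E1C8Δ/Δ overlapped Wt. The Wilson 95% interval of the smallest libraries was wide, 5.89% to 10.2% in Wt replicate 3 and 9.57% to 15.9% in E1C8Δ/Δ replicate 1, and covers counting error only. These shares rest on different depths, since the median mesenchymal cell outside the gate held 16829 UMIs in E1C8Δ/Δ replicate 2 and 47258 in Wt replicate 3.

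After each cell was thinned to 10000 UMIs, with the gate set at 1 UMI each of Gsc and Creb5 and none of Pax1, the share was 3.98%, 4.05% and 4.40% in Wt. It was 6.56%, 4.92% and 7.28% in E1C8Δ/Δ and 2.46%, 2.22% and 2.55% in E1C5Δ/Δ, so that the 3 genotypes did not overlap. Thinning left out 1596 shallower mesenchymal cells, 305 in Wt, 829 in E1C8Δ/Δ and 462 in E1C5Δ/Δ. Mesenchymal cells were still chosen by Prrx1 and the excluded lineage genes with all UMIs, so that step was not at equal depth. The means were 4.15% ± 0.226 in Wt, 6.25% ± 1.21 in E1C8Δ/Δ and 2.41% ± 0.170 in E1C5Δ/Δ (SD, n = 3 each). With all UMIs, out of all cells, with doublet-like cells removed and with a stricter or looser gate, the E1C8Δ/Δ and Wt libraries overlapped. With doublet-like cells removed and with the stricter gate the 2 mutants overlapped too (exact permutation p = 0.2 each). An exact permutation test over the 3 genotypes was added after their separation was seen, so its value at 10000 UMIs restates that separation and is not given. With all UMIs it gave exact permutation p = 0.0786, without doublet-like cells p = 0.179, with the stricter gate p = 0.168 and with the looser gate p = 0.0143. Pairwise, 3 against 3 libraries cannot go below an exact two-sided p = 0.1, which each pair reached after thinning. Both mutants pooled were not set apart from Wt by an exact permutation test (7.95% ± 2.79, n = 6, against 7.79% ± 0.702, n = 3, p = 1 with all UMIs).

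**Figure D2:**
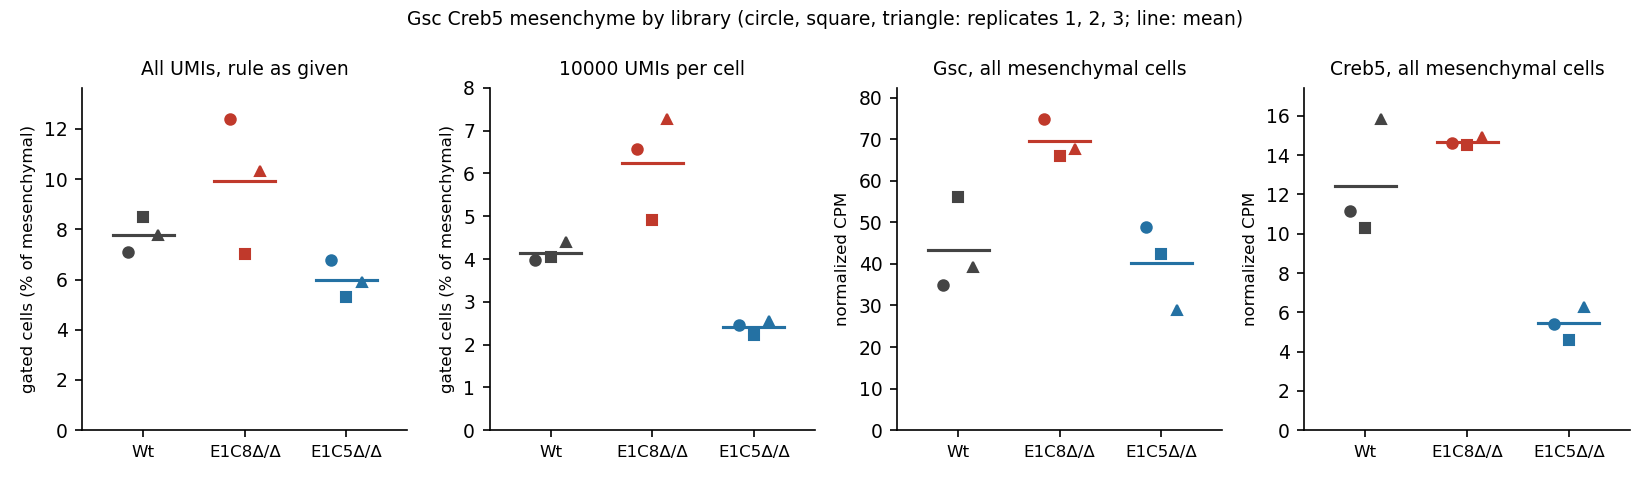
The left panels give the share of mesenchymal cells in the gate (%) per library, with all UMIs and at 10000 UMIs per cell, and the right panels give the normalized CPM of Gsc and Creb5 in all mesenchymal cells summed per library; symbols mark the replicates and lines the means. With Gsc, Creb5 and Pax1 counted at equal depth the 3 genotypes separate, from 2.22% to 2.55% in E1C5Δ/Δ up to 4.92% to 7.28% in E1C8Δ/Δ, and Creb5 is lowest in the 3 E1C5Δ/Δ libraries.

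Levels of the 2 genes were also summed over all mesenchymal cells, whether or not they met the Gsc, Creb5 and Pax1 limits, and compared between genotypes. In such sums, fewer cells with the gene and less RNA per cell cannot be told apart. Creb5 stood at 11.2, 10.3 and 15.9 normalized CPM in Wt, 14.6, 14.5 and 14.9 in E1C8Δ/Δ, and 5.41, 4.61 and 6.27 in E1C5Δ/Δ. All E1C5Δ/Δ libraries were below all others, with a log2 fold change of -1.17 ± 0.16 (SE) against Wt (edgeR adjusted p = 0.00848), and E1C8Δ/Δ was higher than E1C5Δ/Δ by 1.43 ± 0.16 (edgeR adjusted p = 0.00212). With embryo sex as a covariate the fall in E1C5Δ/Δ was -1.28 with an edgeR adjusted p = 0.0652. Gsc stood at 34.9, 56.2 and 39.2 normalized CPM in Wt, 74.9, 65.9 and 67.6 in E1C8Δ/Δ, and 48.9, 42.4 and 29.0 in E1C5Δ/Δ. It was higher in E1C8Δ/Δ than in E1C5Δ/Δ (log2 difference 0.79 ± 0.20, edgeR adjusted p = 0.0319), while E1C8Δ/Δ against Wt missed the threshold (0.67 ± 0.20, edgeR adjusted p = 0.0605) and E1C5Δ/Δ gave -0.12 ± 0.20. The difference between the mutants ranged from 0.60 to 0.96 without single libraries and missed the threshold without any 1 of the E1C8Δ/Δ libraries, or without E1C5Δ/Δ replicate 2 or 3 (edgeR adjusted p up to 0.0972). Pax1, which the gate limits, stood at 12.1, 18.1 and 42.1 in Wt, 25.3, 32.9 and 16.4 in E1C8Δ/Δ, and 9.99, 8.96 and 4.20 in E1C5Δ/Δ. It differed between the mutants by 1.70 ± 0.45 (edgeR adjusted p = 0.0374), and E1C5Δ/Δ against Wt gave -1.63 ± 0.45 (edgeR adjusted p = 0.126). Within gated cells, where the gate itself uses these genes, Creb5 was 78.9, 63.7 and 79.2 in Wt, 73.9, 85.3 and 86.3 in E1C8Δ/Δ, and 46.1, 47.0 and 51.5 normalized CPM in E1C5Δ/Δ. The gate may thus take different cells in each genotype, and its part in the gene differences below was not tested.

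Within the gated cells, few genes passed the test of both mutants, which sets the mean of the 2 mutants against Wt. A gene could pass it through 1 mutant. Map1a passed in E1C8Δ/Δ (-1.72, edgeR adjusted p = 0.00111) and not in E1C5Δ/Δ (-0.67, edgeR adjusted p = 0.203). Nrsn2 passed in E1C5Δ/Δ (-3.23, edgeR adjusted p = 0.0182) and not in E1C8Δ/Δ (-1.54, edgeR adjusted p = 0.0694). Of 12556 autosomal genes tested on UMIs summed per library, 27 passed a Benjamini-Hochberg adjusted p of 0.05 against Wt in edgeR's quasi-likelihood test, 0.215% of those tested, with 14 higher (0.112%) and 13 lower (0.104%). In 14 of the 27 all 6 mutant libraries lay on 1 side of all 3 Wt libraries, 5 of them higher and 9 lower. Over all genes, such separation occurred upward in 2.7% and downward in 2.36%. With sex as a covariate, 2 of the 27 passed, Lbp and Osr2, and without E1C5Δ/Δ replicate 3 or Wt replicate 2 the count was 61 or 15.

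Osr2, an odd-skipped zinc finger gene expressed in limb connective tissue and joints, fell in both mutants. It stood at 20.2, 19.04 and 26.4 normalized CPM in Wt, 6.52, 8.42 and 6.36 in E1C8Δ/Δ, and 7.82, 4.15 and 6.08 in E1C5Δ/Δ. The groups did not overlap, and the log2 fold change of both mutants was -1.66 ± 0.17 (SE; edgeR adjusted p = 0.000537). Lbp, which encodes the lipopolysaccharide binding protein, stood at 13.9, 15.7 and 17.6 in Wt, 5.65, 3.43 and 3.73 in E1C8Δ/Δ, and 2.26, 2.08 and 2.87 in E1C5Δ/Δ. It fell by 2.30 ± 0.16 on the log2 scale (edgeR adjusted p = 1.27e-05). Enpp2, the gene of autotaxin, which makes lysophosphatidic acid, fell from 9.24 to 10.1 normalized CPM in the Wt libraries to 3.54 to 6.08 in the 6 mutant libraries (-1.09 ± 0.15, edgeR adjusted p = 0.00704), a call lost without Wt replicate 2, after removal of doublet-like cells and on thinning to 10000 UMIs.

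The remaining members of the separated set were mixed in function. Wwp2, a ubiquitin ligase gene whose intron holds the cartilage microRNA Mir140, fell from 65.7, 61.1 and 71.3 in Wt to 29.9 to 54.3 normalized CPM in the mutants (-0.70 ± 0.13, edgeR adjusted p = 0.0386), a call lost without any 1 of the Wt libraries or E1C5Δ/Δ replicate 1 or 2. The zinc transporter gene Slc30a4 (-1.01), the chromatin remodeller gene Chd3 (-0.54), the RNA binding protein gene Samd4 (-0.64), Nrsn2 (-2.38) and Eif3j2 (-2.82) also fell. Eif3j2 has a close paralog that can share its reads, and its value is uncertain. Tfap2b fell as well (-2.93), from 8.57, 11.9 and 2.20 normalized CPM in Wt to 0 to 2.26 in the mutants, and its groups overlapped. Map1a, a microtubule protein gene, fell too (-1.19), with E1C5Δ/Δ replicate 2 (10.9 normalized CPM) above Wt replicate 2 (10.64), so that its groups overlapped. Map1a and Slc30a4 lie within 10 Mb of Grem1 on chromosome 2. The calls of Wwp2, Map1a, Slc30a4 and Samd4 were lost on thinning to 10000 UMIs, those of Wwp2, Map1a, Samd4 and Chd3 with the stricter gate, and those of Wwp2, Chd3 and Tfap2b after removal of doublet-like cells. Without Wt replicate 2 the calls of Chd3, Samd4, Nrsn2 and Tfap2b were lost, and without Wt replicate 3 those of Chd3 and Samd4.

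Rarb, the retinoic acid receptor beta gene and itself a retinoic acid target, was among the 5 separated genes that rose. It stood at 16.6, 16.6 and 16.3 normalized CPM in Wt, 27.0, 19.2 and 22.4 in E1C8Δ/Δ, and 29.2, 30.9 and 29.2 in E1C5Δ/Δ (0.63 ± 0.11, edgeR adjusted p = 0.0386). The call was lost in 12 of 19 alternatives, leaving out any Wt library among them. Cldn10, a tight junction gene, and Rrp36, a ribosome assembly gene, rose by 0.84 and 0.86, calls lost without Wt replicate 2 or 3 and, for Cldn10, without any 1 of Wt replicate 1, the E1C8Δ/Δ libraries and E1C5Δ/Δ replicate 2. The other 2 were the small nucleolar RNA host genes Snhg1 and Snhg17, with Snhg5, Snhg15 and Snhg16 higher but overlapping, and the Snhg17 call was lost without Wt replicate 2. The calls of Cldn10, Rrp36, Snhg15, Snhg16 and Snhg17 were also lost after removal of doublet-like cells and on thinning. Snhg5 stood at 37.1, 33.6 and 28.9 in Wt, 117, 127 and 151 in E1C8Δ/Δ, and 42.1, 27.0 and 42.0 in E1C5Δ/Δ. The log2 fold change was 1.97 ± 0.16 in E1C8Δ/Δ (edgeR adjusted p = 7.41e-05), and E1C5Δ/Δ gave 0.17 ± 0.16.

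**Figure D3:**
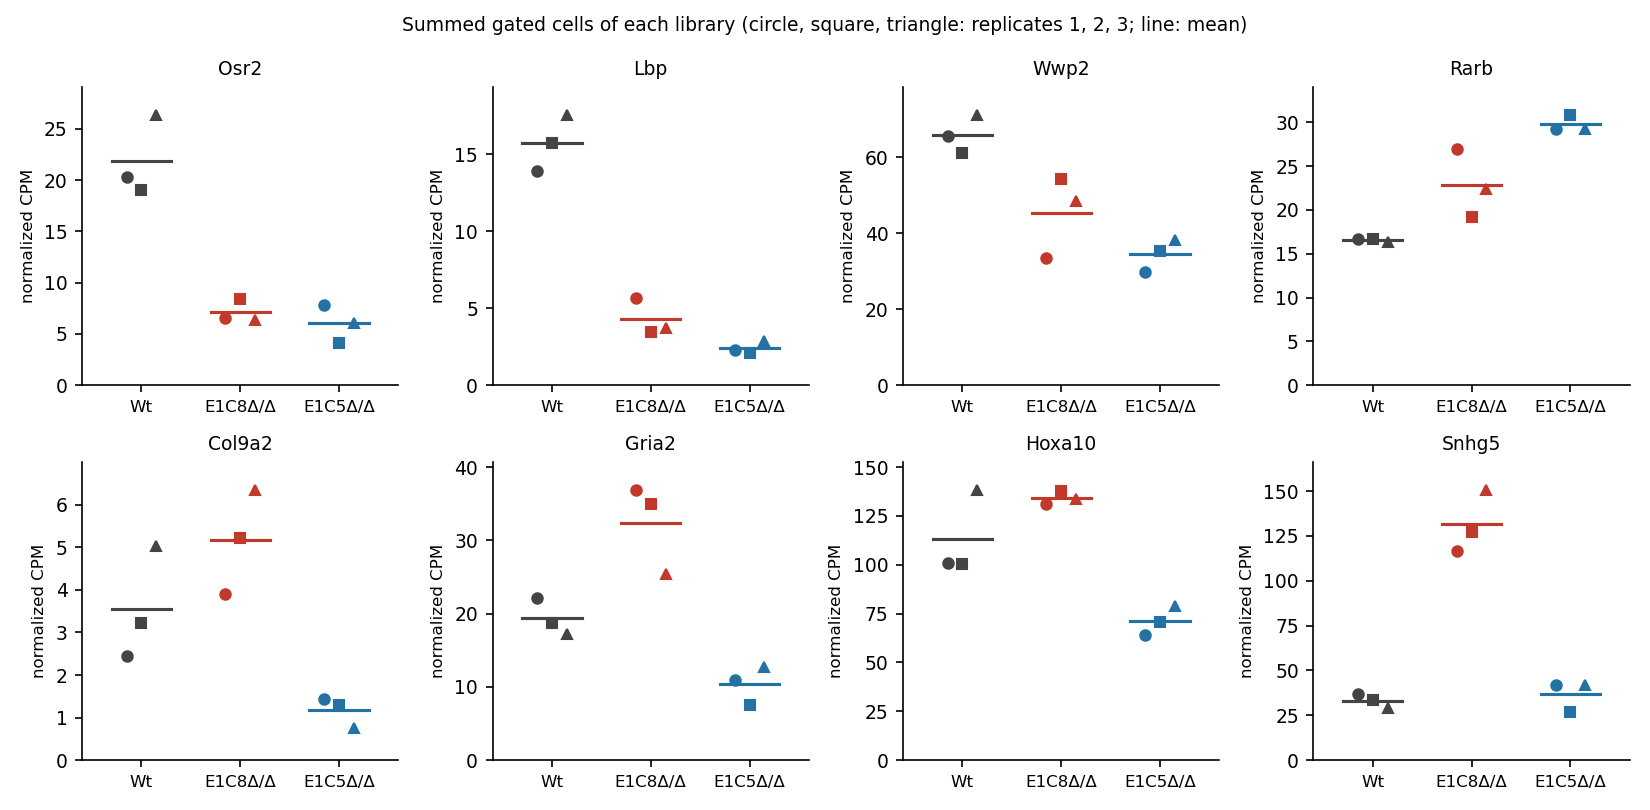
Normalized CPM of 8 genes in the summed gated cells of each library, by genotype; symbols mark the replicates and lines the group means. Osr2 and Lbp are low in all 6 mutant libraries, Col9a2, Gria2 and Hoxa10 are lower in every E1C5Δ/Δ library than in every other library, and Snhg5 is high in the 3 E1C8Δ/Δ libraries alone.

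Taken separately, E1C8Δ/Δ differed from Wt at 262 genes (2.09% of those tested), 118 higher (0.94%) and 144 lower (1.15%). E1C5Δ/Δ differed at 36 (0.287%), 10 higher (0.0796%) and 26 lower (0.207%), and the 2 comparisons share the Wt libraries. With sex as a covariate the counts were 32 and 3, and without single libraries they ranged from 34 (without E1C8Δ/Δ replicate 2) to 466 and from 6 (without Wt replicate 2) to 37 (both without E1C5Δ/Δ replicate 3). Of 12 chondrogenic genes tested in E1C5Δ/Δ, Col2a1, Col9a3 and Wwp2 fell, none rose, 9 did not pass, and the median log2 fold change was -0.49, against 0.01 over all genes. Col2a1 stood at 125, 144 and 148 normalized CPM in Wt, 92.2, 123 and 111 in E1C8Δ/Δ, and 70.3, 67.0 and 96.5 in E1C5Δ/Δ. All E1C5Δ/Δ libraries were below all Wt libraries, and the fold change was -0.82 ± 0.15 (edgeR adjusted p = 0.0376) in E1C5Δ/Δ and -0.34 ± 0.15 (edgeR adjusted p = 0.241) in E1C8Δ/Δ. Col9a3 and Wwp2 were the other 2 (-1.58 and -0.92), and Osr2, from the joint and tendon lists, fell there by 1.76. The Osr2 call in E1C5Δ/Δ was kept in 18 of 19 alternatives and lost on thinning to 10000 UMIs. Sox9 itself did not pass in either mutant, with -0.23 ± 0.20 in E1C5Δ/Δ and -0.06 ± 0.20 in E1C8Δ/Δ. The Col2a1 and Col9a3 calls were lost with sex as a covariate, after removal of doublet-like cells, and without any 1 of Wt replicates 2 and 3, E1C8Δ/Δ replicate 3 and E1C5Δ/Δ replicates 1 and 2, and that of Col9a3 also without any other mutant library. The Wwp2 call in E1C5Δ/Δ was lost with sex as a covariate and without any 1 of Wt replicates 2 and 3 and E1C5Δ/Δ replicates 1 and 2. The Col2a1 fold change missed the threshold in 10 of 19 alternatives, with the same sign in each.

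**Figure D4:**
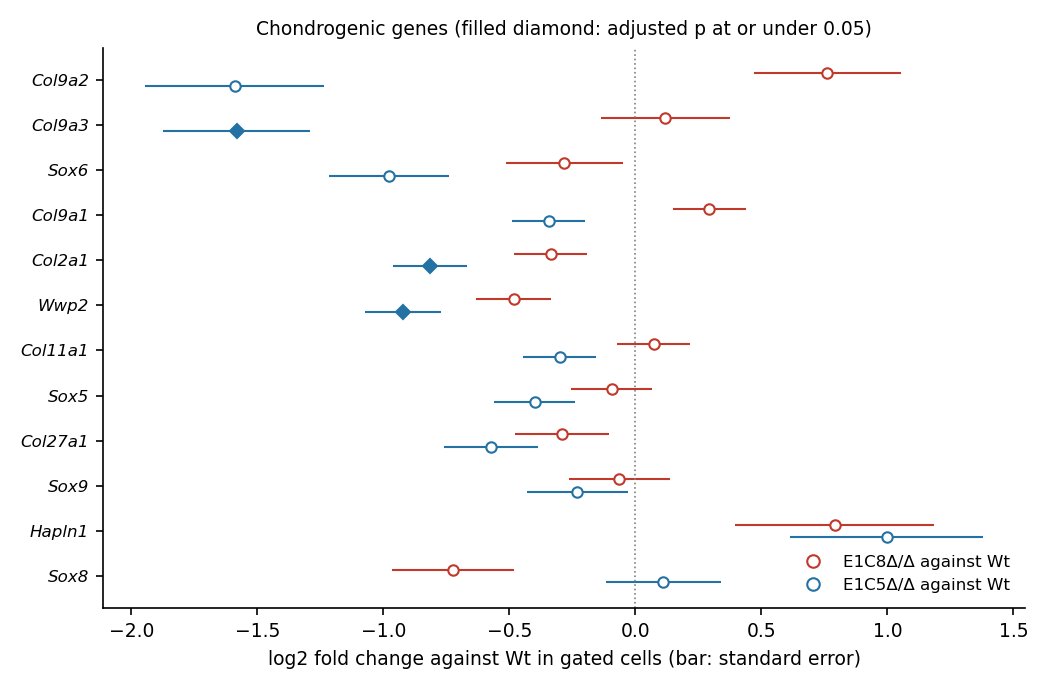
Log2 fold changes against Wt in gated cells (horizontal axis, bars are standard errors) for the 12 chondrogenic genes tested, in E1C8Δ/Δ and E1C5Δ/Δ; filled diamonds passed the threshold. Col9a3, Col2a1 and Wwp2 pass in E1C5Δ/Δ, at -1.58, -0.82 and -0.92, and none passes in E1C8Δ/Δ.

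Of 15 proximal factors tested, Meis3 and Rarb rose in E1C5Δ/Δ and none fell. Meis3 stood at 5.17, 6.08 and 4.40 normalized CPM in Wt, 9.13, 4.52 and 6.30 in E1C8Δ/Δ, and 12.3, 11.2 and 14.5 in E1C5Δ/Δ (1.24 ± 0.21, edgeR adjusted p = 0.0281). Of 6 anterior genes tested, Alx1 rose, 2 had a positive fold change and the median was -0.22. Alx1, a homeobox gene also in the shoulder girdle list, rose in E1C5Δ/Δ from 5.97 to 10.72 in the Wt libraries to 17.3 to 20.3 (1.08 ± 0.19, edgeR adjusted p = 0.0338). Meis1 and Meis2 gave -0.04 ± 0.17 and 0.09 ± 0.14 there. Foxc1, which the rule of largest changes does not name and which was picked after its values were seen, fell in E1C5Δ/Δ from a mean of 27.9 to 14.1 normalized CPM (-1.04, edgeR adjusted p = 0.0376). Tgfb2 and Irx3 did not pass in either mutant, with fold changes of -0.42 ± 0.15 and 0.20 ± 0.13 in E1C5Δ/Δ and -0.16 ± 0.15 and 0.07 ± 0.13 in E1C8Δ/Δ. The Meis3 and Alx1 calls were lost with sex as a covariate, after removal of doublet-like cells, on thinning, and without any 1 of the Wt and E1C5Δ/Δ libraries, except that Alx1 passed without E1C5Δ/Δ replicate 3. The Alx1 call was also lost with the stricter gate. The Rarb call in E1C5Δ/Δ was lost in 7 of 19 alternatives. These were a replicate block, sex as a covariate, thinning, and leaving out any 1 of Wt replicates 2 and 3 and E1C5Δ/Δ replicates 1 and 2.

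In E1C8Δ/Δ, other list genes passed. BMP target genes Id3 and Bambi rose, by 0.64 ± 0.13 and 0.59 ± 0.10 (edgeR adjusted p = 0.0266 and 0.0139), and of 13 BMP targets 12 had a positive fold change, against 50.4% of all genes. In E1C5Δ/Δ 3 of the 13 were positive, against 51.1% of all genes, with a median of -0.07 and none past the threshold. Id3 stood at 288, 270 and 274 normalized CPM in Wt, 471, 440 and 388 in E1C8Δ/Δ, and 276, 329 and 227 in E1C5Δ/Δ. Every E1C8Δ/Δ library was thus above every other library. The 11 stress genes had a median of 0.28 in E1C8Δ/Δ, beside 0.27 for the BMP targets, with 7 positive and 1, the immediate early gene Ier2, past the threshold (0.55 ± 0.13, edgeR adjusted p = 0.0489). Hoxa9 (0.54), Wnt11 (0.83) and Ackr3 (0.78) rose, and Mki67 (-0.65) and the connective tissue factor gene Tcf7l2 (-0.64) fell. Mki67 was the 1 called of 14 G2M phase genes, whose median was 0.01 with 8 positive, and none of 14 S phase genes passed. All of these calls were lost with sex as a covariate and without E1C8Δ/Δ replicate 2, and those of Ier2, Id3, Hoxa9, Wnt11, Ackr3, Mki67 and Tcf7l2 also without Wt replicate 2 or E1C8Δ/Δ replicate 1. On thinning to 10000 UMIs, Bambi and Mki67 alone of these passed.

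The mutants could be compared with each other at balanced sex, and there 314 genes differed (2.5% of those tested), 157 higher and 157 lower (1.25% each) in E1C8Δ/Δ, a count that includes Creb5, from which nothing is read because the gate uses it. The count was 220 with sex as a covariate, 92 without E1C8Δ/Δ replicate 1 and 49 without E1C8Δ/Δ replicate 2. Of the cartilage genes, the type IX collagen genes Col9a1, Col9a2 and Col9a3, were higher in E1C8Δ/Δ, 3 of 12 tested, and none was lower. Col9a2 stood at 3.91, 5.22 and 6.36 normalized CPM in E1C8Δ/Δ and 1.44, 1.30 and 0.766 in E1C5Δ/Δ, with 2.44, 3.21 and 5.03 in Wt. The log2 difference was 2.35 ± 0.34 (edgeR adjusted p = 0.00478), and it passed in 19 of 19 alternatives. Col9a2 is a low-count gene and rests on few UMIs in the small libraries. Tested genes held 2175180 UMIs in E1C8Δ/Δ replicate 1 and 4093399 in E1C5Δ/Δ replicate 2. Col9a3 differed by 1.70 ± 0.29 (edgeR adjusted p = 0.0118), a call lost on thinning to 10000 UMIs and without E1C8Δ/Δ replicate 2. Col9a1 differed by 0.64 ± 0.15 (edgeR adjusted p = 0.0372), and its call was lost with sex as a covariate and without any 1 of the 6 mutant libraries.

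Gria2, an AMPA receptor subunit gene that was high in Pax1 cells, was high in E1C8Δ/Δ and low in E1C5Δ/Δ. It stood at 22.2, 18.8 and 17.3 normalized CPM in Wt, 37.0, 35.01 and 25.4 in E1C8Δ/Δ, and 11.01, 7.53 and 12.7 in E1C5Δ/Δ. The mutants differed by 1.53 ± 0.19 (edgeR adjusted p = 0.00128) in 19 of 19 alternatives, although neither mutant passed against Wt (edgeR adjusted p = 0.0616 and 0.0855). Hoxa10 stood at 131, 138 and 134 in E1C8Δ/Δ and 64.3, 70.8 and 79.0 in E1C5Δ/Δ, with 101, 101 and 139 in Wt (0.91 ± 0.13, edgeR adjusted p = 0.00461). Among Hoxb and Hoxd genes, Hoxb5 and Hoxd4 were lower in E1C8Δ/Δ than in E1C5Δ/Δ (-0.89 and -0.64), as was Meis3 (-1.10). All 13 BMP targets had a positive difference, against 50.2% of all genes, and Id3 and Bambi passed (0.65 and 0.50), calls lost without E1C8Δ/Δ replicate 2 or E1C5Δ/Δ replicate 1 among others. Of the G2M genes 3 of 14 (Tpx2, Cenpe and Mki67) were lower in E1C8Δ/Δ and 4 had a positive difference, and of 14 S phase genes Mcm4 was lower and 2 were positive. Mki67 was lower in E1C8Δ/Δ (-0.73 ± 0.13, edgeR adjusted p = 0.0142), at 165, 202 and 220 normalized CPM against 310, 350 and 320 in E1C5Δ/Δ and 351, 308 and 262 in Wt, a call lost without E1C8Δ/Δ replicate 1 or 2. The calls of Tpx2 and Cenpe were lost without any 1 mutant library, and on thinning. That of Mcm4 was lost in 12 of 19 alternatives, among them sex as a covariate, thinning, and leaving out any 1 of the E1C8Δ/Δ libraries or E1C5Δ/Δ replicate 1 or 2. The Bambi, Hoxb5, Hoxd4 and Meis3 calls were also lost on thinning. The Meis3 call was lost without E1C8Δ/Δ replicate 2 or 3 or E1C5Δ/Δ replicate 3, that of Hoxb5 without any 1 of the E1C8Δ/Δ libraries or E1C5Δ/Δ replicate 2, and that of Hoxd4 without any 1 mutant library other than E1C8Δ/Δ replicate 1.

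Depth, the marking of doublets and stress genes were uneven across these comparisons. E1C8Δ/Δ replicates 2 and 3 had the shallowest gated cells and the highest shares of gated cells marked as doublet-like. The share marked over all cells was set by the barcode count, which was highest in E1C8Δ/Δ replicate 3. After removing doublet-like cells the mutants differed at 193 genes, and at 10000 UMIs at 123. Of 11 stress genes, Jun and Ier2 were higher in E1C8Δ/Δ than in E1C5Δ/Δ and 10 had a positive difference. The Jun call was lost without any 1 of the E1C8Δ/Δ libraries or E1C5Δ/Δ replicate 1 or 2, with the stricter gate and after removal of doublet-like cells. That of Ier2 was lost without E1C8Δ/Δ replicate 1 or 2 or E1C5Δ/Δ replicate 2 or 3. The summed level of 7 erythroid markers in gated cells ranged from 913 to 4058 CPM in Wt, 150 to 8348 in E1C8Δ/Δ and 203 to 1136 in E1C5Δ/Δ, and that of other mesenchyme from 756 to 10512. All 6 erythroid markers tested had a positive difference between E1C8Δ/Δ and E1C5Δ/Δ, with a median of 2.25 and 0 past the threshold. The part of these in the gene differences was not tested. Markers of muscle, endothelium and myeloid cells summed to at most 8.78, 5.63 and 2.06 CPM in any library, with Lbx1, Cdh5 and Tyrobp at 0 by the gate. Muscle markers held 5.61 to 8.78 CPM in E1C8Δ/Δ and 1.84 to 4.49 in E1C5Δ/Δ. Endothelial markers held 3.45 to 4.35 and 1.08 to 2.13 CPM, while the myeloid ranges of the mutants overlapped. The neural crest and sclerotome lists stayed at or under 8.04 and 8.08 CPM, the megakaryocyte list at or under 12.2 CPM, and 7 ectodermal markers at or under 14.5 CPM, with Epcam at 0 by the gate.

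Few changes were shown to differ between gated cells and other mesenchyme. Other mesenchyme, with more UMIs, had 227 genes past the test of the mean of both mutants (1.41% of 16115 tested), 67 higher (0.416%) and 160 lower (0.993%). Osr2 and Lbp fell there too (-1.87 ± 0.21 and -2.57 ± 0.28). Taken singly, 1322 of its genes passed in E1C8Δ/Δ (8.2%), 483 higher (3%) and 839 lower (5.21%), and 151 in E1C5Δ/Δ (0.937%), 39 higher (0.242%) and 112 lower (0.695%). The mean change of both mutants differed between gated cells and other mesenchyme at 3 genes (0.0239%), 1 with a positive (0.00796%) and 2 with a negative difference (0.0159%). In E1C5Δ/Δ alone 4 genes passed this test (0.0319%), 3 positive (0.0239%) and 1 negative (0.00796%). Shisa2, an attenuator of Wnt and FGF receptors, gave 0.22 ± 0.12 in gated cells and -0.55 ± 0.09 in other mesenchyme, a difference of 0.70 ± 0.08 (edgeR adjusted p = 0.00237). Its gated cells stood at 34.1, 28.3 and 21.4 normalized CPM in Wt, 28.7, 29.5 and 28.1 in E1C8Δ/Δ, and 37.6, 34.8 and 42.7 in E1C5Δ/Δ, while other mesenchyme went from a mean of 16.7 to 11.3. Scube1, which encodes a secreted protein, and the BMP target Id2 differed by -0.33 ± 0.05 and -0.30 ± 0.05 (edgeR adjusted p = 0.0189 and 0.0358). None of the 3 passed with sex as a covariate, where 396 genes had an unadjusted p under 0.05, or when cells were thinned to 10000 UMIs. Scube1 and Id2 were also lost with the stricter gate and without any 1 of Wt replicates 2 and 3, E1C8Δ/Δ replicates 1 and 3 and E1C5Δ/Δ replicates 1 and 3, and Id2 without Wt replicate 1.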

How the data were processed

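Single cells of mouse forelimb buds were measured with the 10x Genomics 3′ v3.1 kit in 9 libraries, 3 per genotype. The authors deposited UMI counts per gene and barcode, made with Cell Ranger 6.0.1 on mm10 according to the submitters' processing notes, which also name Seurat 4.3.0.1. UMIs count captured molecules once.

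Barcodes with over 2500 genes, under 200000 UMIs and under 10% mitochondrial UMIs were kept, and gated cells were summed per library. Doublet-like cells were scored by their neighbourhood of artificial doublets, at 0.8% per 1000 barcodes, and were kept in the primary result. Sums were tested with edgeR 4.0.16 (R 4.3.3) by its quasi-likelihood test over all 3 genotypes, after TMM scaling and filterByExpr, on autosomal genes with symbols and positions from GENCODE M21. The Benjamini-Hochberg adjusted p threshold was 0.05. Standard errors (SE) of edgeR fold changes are approximate, taken as the absolute log2 fold change over the square root of the F statistic. Fold changes between gated cells and other mesenchyme are ratios of CPM plus 1, listed for genes of at least 20 CPM. The difference of changes was fitted with the library as a block. Shares were compared by exact two-sided permutation over libraries. On simulated counts with 200 genes changed by a log2 fold of 1, 188 were recovered for both mutants against Wt, with 12 false calls among 12412 genes. The changed genes were drawn only from those with higher expected counts, and no effect of sex or doublets was simulated. Recovery of genes with low counts was not tested.

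The members and all gene lists were chosen with earlier results of these data known. The rule for named genes took the gate and label genes, list genes past the threshold in both mutants, at most 10 separated genes in each direction, and the 15 highest and 10 lowest genes beside other mesenchyme. List genes that passed in 1 mutant or between the mutants, Gria2, Tfap2b, Map1a and the overlapping Snhg genes were named after their values were seen. Alternatives were DESeq2 1.42.0, RLE scaling, no filter, a replicate block, sex as a covariate, other gates, doublets or mixed cells removed, thinning, and leaving out each library. Replicates are labelled as biologically independent.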

Additional observations from a re-analysis of the deposited data

Results flagged for a closer look

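At 10000 UMIs per cell, the share of mesenchymal cells in the gate was 3.84 percentage points higher in E1C8Δ/Δ than in E1C5Δ/Δ, with the Wt libraries between them, and was singled out because the mutants stood on opposite sides of Wt. The mesenchymal cells themselves were chosen with all UMIs. The pairwise exact permutation test gave p = 0.1, the smallest that 3 against 3 libraries allow. With all UMIs the test over the 3 genotypes, added after the data were seen, gave exact permutation p = 0.0786, without doublet-like cells p = 0.179 and with the stricter gate p = 0.168. The difference between the mutants was 2.75 points with the stricter gate and 3.22 points without doublet-like cells, with overlapping libraries and an exact permutation p = 0.2 in each. The gate itself counts UMIs of Gsc, Creb5 and Pax1, so fewer such cells and different RNA levels per cell cannot be told apart in the share.

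For 5 genes the change against Wt differed between gated cells and other mesenchyme in a test of that difference. For the mean of both mutants the log2 difference was 0.70 for Shisa2, -0.33 for Scube1 and -0.30 for Id2. In E1C5Δ/Δ it was also positive for Fam181b (0.94, edgeR adjusted p = 0.00458), and Tcf7l2 gave 0.36 (edgeR adjusted p = 0.0111), both named after their values were seen. In E1C5Δ/Δ 4 genes passed (0.0319% of those tested), with Shisa2 and Scube1 as the others. In E1C8Δ/Δ alone no gene passed in edgeR, where 826 had an unadjusted p under 0.05, while 3 passed in DESeq2 and, in edgeR, 7 without doublet-like cells, 56 without the count filter and 1 on thinning. None of the 5 passed with sex as a covariate. Thinned to 10000 UMIs, Shisa2, Scube1 and Id2 were lost in both mutants, and Scube1 and Fam181b in E1C5Δ/Δ. Fam181b was also lost without E1C5Δ/Δ replicate 3, Tcf7l2 without Wt replicate 2 or E1C5Δ/Δ replicate 2 or 3. With the stricter gate, Scube1 and Id2 were lost for both mutants, and Tcf7l2, Scube1 and Fam181b in E1C5Δ/Δ.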

How the results depend on the processing

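For both mutants, E1C8Δ/Δ, E1C5Δ/Δ and E1C8Δ/Δ against E1C5Δ/Δ in turn, the genes called in gated cells numbered 104, 411, 84 and 497 in DESeq2, 420, 768, 398 and 930 without the count filter, 13, 146, 18 and 190 with the stricter gate, and 13, 113, 10 and 193 without doublet-like cells. With sex as a covariate the first 3 were 2, 32 and 3, and thinned to 10000 UMIs the last 3 were 122, 6 and 123. With the replicate block all 4 were 19, 65, 6 and 107. The replicate numbers did not pair the libraries: correlations of same-numbered libraries ranged from -0.156 to 0.0215, and the libraries did not all correlate best with their own number. Leaving out single libraries gave 15 to 61, 34 to 466, 6 to 37 and 49 to 455 genes, with the most without E1C5Δ/Δ replicate 3 for the first 3 and without Wt replicate 3 for the last. The differing changes numbered 5 in DESeq2, 40 without the filter, 0 with sex (396 at an unadjusted p under 0.05), 1 with the stricter gate, 6 without doublets, 1 thinned and 1 to 4 without single libraries. Other mesenchyme had 723, 413, 66, 4 and 125 genes in DESeq2, without the filter, with the block, with sex and thinned, and 66 to 569 without single libraries. The share difference of both mutants, 0.165 points, turned to -0.629 with the stricter gate and ran from -0.726 to 0.697 without single libraries, reaching -0.185 without Wt replicate 1, -0.726 without E1C8Δ/Δ replicate 1 and -0.306 without E1C8Δ/Δ replicate 3. Over all mesenchymal cells, Gsc in E1C8Δ/Δ (0.68) and Creb5 in both mutants (-0.46) passed in DESeq2, and Creb5 in E1C5Δ/Δ missed the threshold with sex (-1.28, edgeR adjusted p = 0.0652). Without single libraries, Gsc ranged from 0.53 to 0.90 in E1C8Δ/Δ, from -0.29 to 0.11 in E1C5Δ/Δ (0.11 without Wt replicate 2, 0.07 without E1C5Δ/Δ replicate 3) and from 0.60 to 0.96 between the mutants, and Creb5 from -1.29 to -0.97 in E1C5Δ/Δ. Of the values of single named results under alternatives, 936 kept their side of the threshold, 429 lost it, 3 gained it and 0 reversed. The cause of these shifts was not tested. The smallest libraries, with 46 to 86 gated cells, and the all-male Wt group limit the precision against Wt.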

Other observations

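Genes near Grem1 were looked at after the data were seen. Of 126 tested genes within 10 Mb of Grem1 on chromosome 2, 9 passed in E1C8Δ/Δ gated cells (7.14%), 2 higher and 7 lower, against 2.04% of 12430 genes elsewhere. They were Aqr, Dph6, Gchfr, Rpap1, Haus2, Trp53bp1, Map1a, Hypk and Slc30a4. In the test of the mean of both mutants 2 of the 126 passed in gated cells (1.59%, against 0.201% elsewhere), Map1a and Slc30a4, both lower. In other mesenchyme 12 of 156 passed it (7.69%, against 1.35%), with Grem1 itself counted among the 12. In E1C5Δ/Δ gated cells 0 of the 126 passed in edgeR, against 0.29% elsewhere. In other mesenchyme, which had more genes tested, 31 of 156 nearby genes passed in E1C8Δ/Δ (19.9%, against 8.09% elsewhere) and 4 in E1C5Δ/Δ (2.56%, against 0.921%). The 31 include Grem1 itself.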
